A study of Mus musculus with 82 samples.

Results

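Gene expression in mouse sciatic nerve 3 days post injury was compared with that in uninjured nerve, in 8 of the 82 libraries of the series. The comparison follows its own count table, which holds 4 libraries of injured nerve and 4 of uninjured nerve, replicates 1 to 4 in each group, and all genes of that table were considered. All 8 libraries carry the genotype label Mitf, so injured and uninjured nerves share whatever that label stands for. The labels do not say whether it names an altered allele, and for this table they give no age, sex, strain or kind of injury. Whether each library is a separate animal is not stated either; p-values therefore reflect the spread from library to library, which may be technical. Totals ran from 23219985 to 34531474 estimated counts per library, over 51444 genes, of which 15245 had enough counts to be tested. A table of wild type nerves at 3, 7 and 14 days post injury (3 libraries a day) and a table with nerves labelled Ndrg1 (5 libraries) and control (6 libraries) served as points of reference. The time course table also holds nerves labelled Mutant on the same days, and its fit used all 18 libraries. Neither table of reference gives an age in its labels, and each table was processed separately.

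Schwann cells are the glia of peripheral nerve, and in the uninjured nerve most of their effort goes into myelin, a membrane sheath rich in cholesterol and a few abundant proteins. When axons are cut off from their cell bodies they degenerate, and Schwann cells reduce their myelin program, divide and take up a repair program driven in large part by the transcription factor Jun, in which they secrete factors that keep neurons alive and guide regrowth. Macrophages enter from the blood, and together with Schwann cells they digest the myelin debris in lysosomes. In RNA from whole tissue, fewer cells of a type and less RNA per cell cannot be told apart, and this holds for each group of genes described here.

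Several libraries stood apart from their group before any gene was tested. Injured replicate 1 held RNA of genes known from astrocytes, the glia of the brain and spinal cord: 16 astrocyte markers, listed after the data were seen, summed to 15378 CPM there (CPM is the estimated count scaled to a common library total), against 70.8 to 92.9 CPM in injured replicates 2 to 4 and 63.0 to 92.4 CPM in uninjured nerves. The glutamate transporter Slc1a2 reached 6493 CPM in that library and at most 6.76 CPM in the other 7. Mog, a myelin protein of the central nervous system, stood at 28.1 CPM in it and at 0 in the other 7 libraries. Skeletal muscle RNA was uneven in the uninjured group. The 24 muscle markers summed to 151, 56.4, 105 and 61.6 CPM in injured replicates 1 to 4, against 481, 136, 87.6 and 3343 CPM in uninjured replicates 1 to 4, and the groups overlapped (log2 difference -2.11, two-sided exact permutation p = 0.142857, where 0.0285714 is the smallest possible). Replicate 4 of both groups was the only one with Xist, at 186.8 CPM injured and 315.7 CPM uninjured, and had no Ddx3y counts, while replicates 1 to 3 of both groups held Ddx3y between 30.8 and 58.1 CPM. Transcripts of the mitochondrial genome summed to 80270.5, 107212, 42888 and 73970 CPM in injured nerves and to between 28546 and 32582 CPM in uninjured nerves. Genes with short transcripts were called higher more often: 22.9% of the shortest 20% rose and 6.98% fell, against 4.79% and 20.6% of the longest 20%, and the part of length in the results below was tested only as an alternative.

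**Figure D1:**
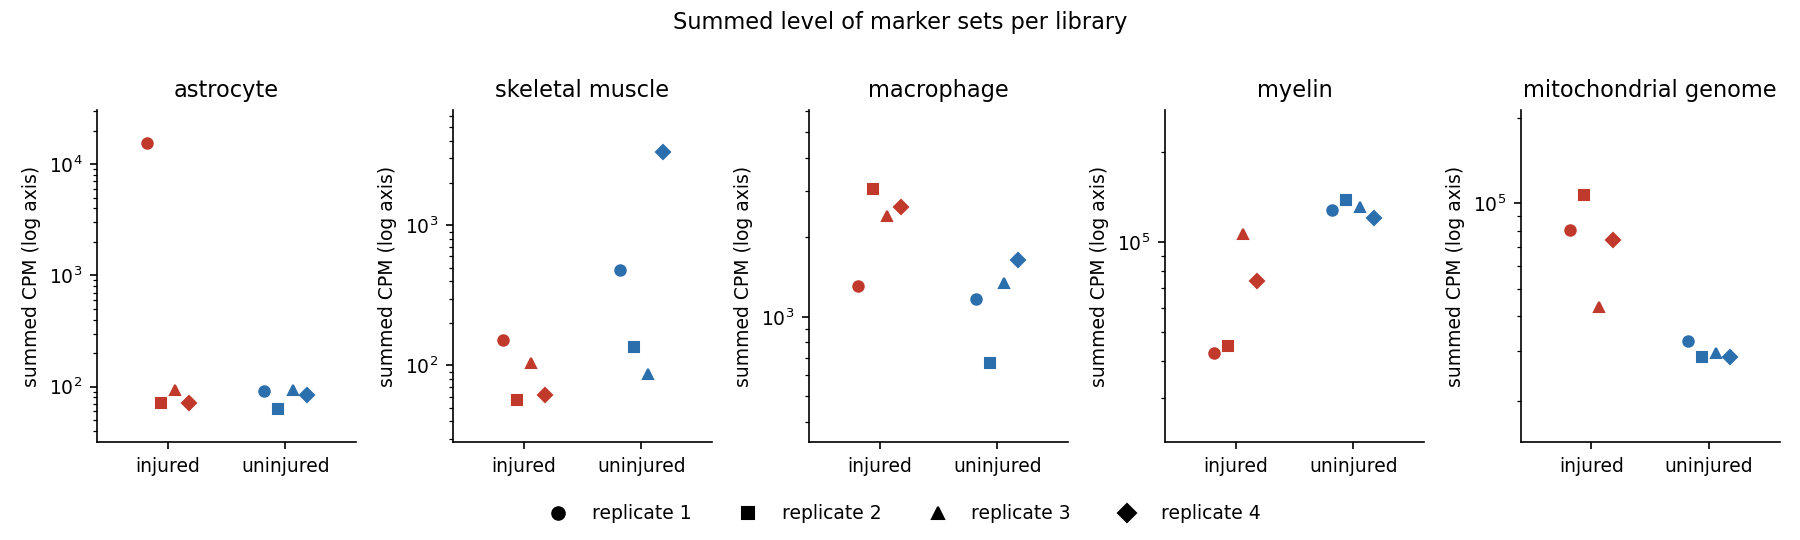
Summed CPM (log axis) of 5 sets of genes in each library, injured on the left and uninjured on the right of each panel, with 1 symbol per replicate number. Injured replicate 1 stands alone for astrocyte genes at 15378 CPM, and uninjured replicate 4 for skeletal muscle genes at 3343 CPM. Injured replicate 3 has the highest myelin sum and the lowest mitochondrial sum of the injured libraries.

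At 3 days post injury the nerve had lost part of the RNA for lipid synthesis and for several myelin proteins, and had gained RNA for cell division, for secreted repair signals and for lysosomal and chemokine genes. Of the 15245 genes tested, 3365 (22.1%) passed edgeR's quasi-likelihood test at adjusted p under 0.05, with 1785 (11.7%) higher and 1580 (10.4%) lower in injured nerve. Large changes were mostly increases: 837 genes rose and 304 fell by at least 1 on the log2 scale, and 130 rose and 9 fell by at least 3. All 4 injured libraries lay above all 4 uninjured ones for 2306 genes and below them for 1959, while 255 called genes had groups that overlapped. Without injured replicate 1 the test called 3509 genes, of which 2970 were among the 3365 (88.3%). Without uninjured replicates 1 and 4, the libraries richest in muscle RNA, 574 genes were called from 4 against 2 libraries, and without replicate 4 of both groups 1479 were called. Leaving out 1 uninjured library gave 2080, 1816, 2080 and 2247 called genes for replicates 1 to 4, and no gene called both times changed its direction in any of these fits.

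**Figure D2:**
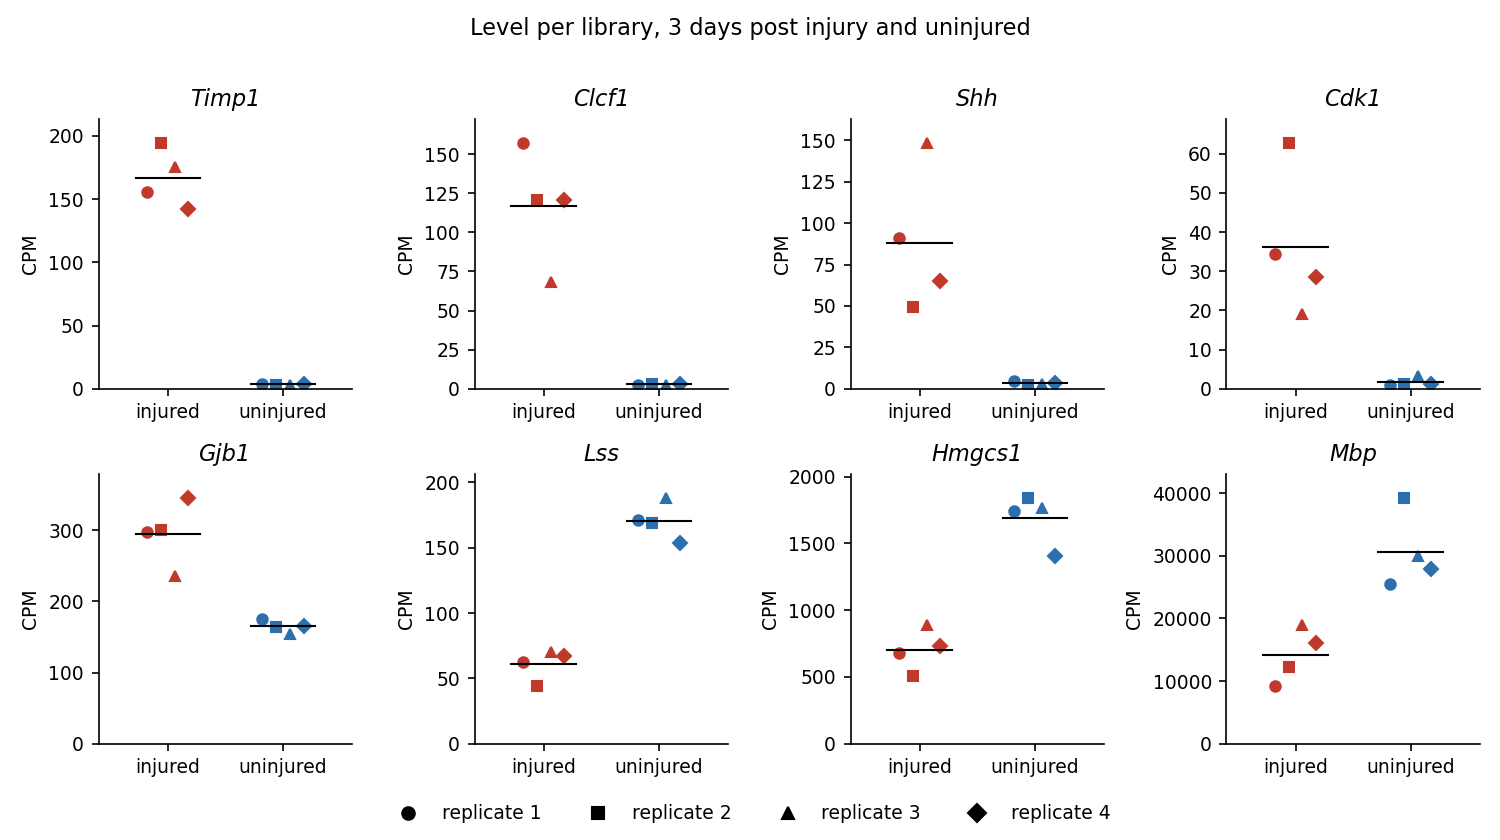
CPM of 8 genes in each library, injured on the left and uninjured on the right, with 1 symbol per replicate number and a line at the group mean (4 libraries a group). Timp1, Clcf1, Shh, Cdk1 and Gjb1 lie higher in all injured libraries than in any uninjured one, and Lss, Hmgcs1 and Mbp lie lower in all of them.

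The signals that repair cells secrete, and their receptors, included several of the strongest calls. Clcf1 (chromosome 19, 4214238 to 4223490, plus strand, GRCm38), a cytokine that signals through the gp130 receptor, stood at 157, 121, 68.4 and 121 CPM in injured nerves, against 2.72, 3.20, 2.38 and 2.88 CPM in uninjured nerves (log2 change 5.37, SE 0.276, edgeR adjusted p = 1.94e-05). Each injured library thus lay far above all uninjured ones for this ligand. Shh (chromosome 5, 28456815 to 28467256, minus strand), a Hedgehog ligand that mature Schwann cells barely make, had 90.9, 49.2, 148 and 64.8 CPM in injured nerves, against 4.66, 2.02, 2.59 and 3.45 CPM in uninjured nerves (4.76, SE 0.402, adjusted p = 0.000892). Gdnf, a survival factor for motor and sensory neurons, had 26.5, 24.3, 8.53 and 21.1 CPM in injured nerves, against 0.145, 0.343, 0 and 0 CPM in uninjured nerves (7.30, SE 0.900, adjusted p = 0.00231). Injured replicate 3 was the lowest of the injured libraries for Clcf1 and Gdnf and the highest for Shh. Btc, an EGF receptor ligand, rose by 4.07 on the log2 scale, the fibroblast growth factor Fgf5 by 3.92, and Ngfr, the low-affinity neurotrophin receptor, by 2.03. Lif, another gp130 cytokine, was between 8.57 and 15.1 CPM in injured nerves and between 10.5 and 11.1 CPM in uninjured nerves (0.01, adjusted p = 0.974). Cntf, a gp130 ligand stored by myelinating Schwann cells, fell to 426, 439, 874 and 759.6 CPM in injured nerves, against 1179, 1134, 965 and 1190.4 CPM in uninjured nerves (-0.86, adjusted p = 0.0272). The Cntf call ended without injured replicate 2 or uninjured replicate 1, 2 or 4 (adjusted p = 0.064 to 0.0742), and the Fgf5 call ended without any 1 library other than injured replicate 3 or uninjured replicate 4.

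Of 25 repair Schwann cell genes tested, 15 rose (60%) and 1 fell, with a median log2 change of 2.20, where all genes tested had 0.035. The transcription regulators among those that rose were Jun, Hmga1, Hmga2, Runx2 and Atf3. Jun (chromosome 4, 95049034 to 95052222, minus strand) stood at 90.3, 125, 95.6 and 95.3 CPM in injured nerves, against 30.3, 41.5, 43.0 and 46.5 CPM in uninjured nerves (1.33, SE 0.169, adjusted p = 0.002). The chromatin proteins Hmga1 and Hmga2, otherwise typical of embryonic tissue, rose by 3.79 and 4.26, Runx2, best known from bone formation, by 3.67, and the stress factor Atf3 by 1.07. Tnc, a matrix protein of regenerating nerve, rose by 2.38. Gfap and Sox2, both used as markers of immature Schwann cells, did not pass the test: Gfap had 399, 19.4, 41.4 and 9.67 CPM in injured nerves, against 5.44, 2.94, 15.9 and 5.10 CPM in uninjured nerves (4.00, adjusted p = 0.0899), and Sox2 had 57.2, 12.9, 4.92 and 10.7 CPM in injured nerves, against 3.59, 7.46, 5.55 and 1.78 CPM in uninjured nerves (2.20, adjusted p = 0.0896). Sox2 passed without injured replicate 3 (adjusted p = 0.0451). Both are also known from astrocytes, and both were highest in injured replicate 1, which held the astrocyte RNA. Without that library their changes were 1.68 (adjusted p = 0.106) and 1.04 (adjusted p = 0.159), and 14 repair genes rose and 2 fell. Gap43, a growth-associated protein, had 21.8, 18.6, 8.57 and 6.80 CPM in injured nerves, against 7.18, 11.1, 6.88 and 6.55 CPM in uninjured nerves (0.81, adjusted p = 0.176).

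Jun works in dimers with Fos-family proteins, and of 17 AP-1 and immediate early genes 11 rose (64.7%) and 0 fell, with a median of 1.07. Fosl1 had 11.5, 11.0, 3.32 and 10.1 CPM in injured nerves, against 0, 0, 0 and 0.190 CPM in uninjured nerves (7.37, SE 1.03, adjusted p = 0.00288), so it was close to undetected before injury. Fos had 32.9, 38.1, 24.5 and 34.4 CPM in injured nerves, against 6.02, 7.55, 11.8 and 9.65 CPM in uninjured nerves (1.89, SE 0.232, adjusted p = 0.00195). The groups did not overlap for either gene. Maff rose by 1.97, Myc by 1.19, Junb by 1.09 and Egr1 by 1.02. With uninjured replicates 1 and 4 left out, 4 of the 17 still rose, and without replicate 4 of both groups or with muscle level as a covariate 7 did.

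The 12 named genes that rose with the smallest p had varied roles. Timp1 (chromosome X, 20870166 to 20874735, plus strand), an inhibitor of matrix metalloproteinases, had the smallest p of all named genes: 156, 194, 176 and 142 CPM in injured nerves, against 3.65, 3.20, 3.30 and 3.48 CPM in uninjured nerves (5.61, SE 0.162, adjusted p = 8.98e-08). Tnfrsf12a (chromosome 17, 23675445 to 23677468, minus strand), the receptor for the cytokine TWEAK, stood at 69.8, 73.4, 44.5 and 70.1 CPM in injured nerves, against 5.39, 6.06, 7.51 and 4.87 CPM in uninjured nerves (3.43, SE 0.218, adjusted p = 8.38e-05). Lgals3, a galectin of phagocytic cells, had 911, 1063, 434 and 861 CPM in injured nerves, against 64.2, 55.8, 98.9 and 76.9 CPM in uninjured nerves (3.47, SE 0.306, adjusted p = 0.000721). No injured library came near the uninjured range for these 3 genes, which were picked by p from these same libraries. Injured replicate 3 was the lowest of its group for Tnfrsf12a and Lgals3. Cd44, the receptor for the matrix sugar hyaluronan, rose by 2.61, the vesicle protein Syt4 by 2.97, the signalling adaptor Plekho1 by 2.19, the interleukin 4 receptor subunit Il4ra by 1.64 and the protease inhibitor Ctla2a by 3.05. The cell cycle factor E2f1 was also among the 12 named genes that rose with the smallest p.

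E2f1 and its partners switch on the genes for DNA synthesis, and the genes of replication and mitosis rose together. Of 25 DNA replication genes, 20 rose (80%) and 0 fell, with a median of 1.55. Of 24 mitosis genes tested, 19 rose (79.2%) and 0 fell, with a median of 3.05. E2f1 itself had 25.2, 32.0, 16.4 and 20.5 CPM in injured nerves, against 3.19, 3.17, 4.26 and 3.42 CPM in uninjured nerves (2.75, SE 0.258, adjusted p = 0.000892). Cdk1 (chromosome 10, 69335146 to 69352938, minus strand), the kinase that drives entry into mitosis, had 34.5, 62.7, 19.1 and 28.5 CPM in injured nerves, against 0.985, 1.33, 3.34 and 1.14 CPM in uninjured nerves (4.44, SE 0.535, adjusted p = 0.00204). Injured replicate 2 was the highest and replicate 3 the lowest for both genes, and the groups were well apart. Mki67, a protein of all dividing cells, had 38.8, 90.4, 32.3 and 59.7 CPM in injured nerves, against 9.21, 2.94, 9.72 and 9.31 CPM in uninjured nerves (2.84, SE 0.456, adjusted p = 0.00521). Top2a, which untangles replicated DNA, rose by 3.51, the mitotic cyclin Ccnb2 by 3.25 and Foxm1, a transcription factor of the late cell cycle, by 2.79. On the replication side, the nucleotide enzymes Rrm2 and Tk1 rose by 4.12 and 3.97, the helicase subunits Mcm5, Mcm6 and Mcm3 by 2.09, 1.82 and 1.68, and the sliding clamp Pcna by 0.68. Rrm2 lost its call without uninjured replicate 3 or 4. Without uninjured replicates 1 and 4 the counts that rose were 5 of the replication list and 7 of the mitosis list, with muscle level as a covariate 7 and 11, and without replicate 4 of both groups 9 and 14.

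Because these genes moved together, their promoters were read for the sites that textbooks assign to them: TTTGAA, the cell cycle homology region of genes expressed in mitosis, and TTTNNCGC, a site for E2F factors. A window from 250 bases before to 50 bases after each start was taken from RefSeq (GRCm38.p6), and both strands were searched. TTTGAA was found in 15 of the 20 mitosis promoters available (75%), against 11.7% of the 10487 promoters of tested genes and 18.1% of all 27025 promoters. TTTNNCGC was found in 9 of 20 DNA replication promoters (45%), against 8.32% and 5.27%. Over all genes that rose by at least 1 on the log2 scale, TTTGAA was in 18.7% of promoters. The AP-1 site TGANTCA and the CLEAR E-box TCACGTGA were also searched. They were in 7.39% and 0.528% of promoters of genes that rose by at least 1, against 5.13% and 1.83% of tested genes. TGANTCA was in 1 of 21 repair and 4 of 18 matrix protease promoters, and TCACGTGA in 4 of 30 lysosome promoters. A match describes the letters in the window and is not evidence of binding. Shown are 2 mitosis promoters, Ccnb2 (chr9:70421505-70421804) and Cdk1 (chr10:69352863-69353162), with each TTTGAA in capitals, and 2 replication promoters, Mcm6 (chr1:128359656-128359955) and Mcm3 (chr1:20820263-20820562), with each TTTNNCGC in capitals. All 4 lie on the minus strand and are printed 5′ to 3′ as transcribed; in Mcm6 a pair of the sites overlap, on opposite strands, and in Mcm3 the first site is on the other strand.
Ccnb2: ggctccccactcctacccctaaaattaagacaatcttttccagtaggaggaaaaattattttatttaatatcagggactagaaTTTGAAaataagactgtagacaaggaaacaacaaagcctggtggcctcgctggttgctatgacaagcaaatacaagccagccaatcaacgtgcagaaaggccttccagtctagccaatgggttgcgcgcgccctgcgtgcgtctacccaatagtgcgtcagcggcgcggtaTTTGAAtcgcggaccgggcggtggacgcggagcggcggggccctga
Cdk1: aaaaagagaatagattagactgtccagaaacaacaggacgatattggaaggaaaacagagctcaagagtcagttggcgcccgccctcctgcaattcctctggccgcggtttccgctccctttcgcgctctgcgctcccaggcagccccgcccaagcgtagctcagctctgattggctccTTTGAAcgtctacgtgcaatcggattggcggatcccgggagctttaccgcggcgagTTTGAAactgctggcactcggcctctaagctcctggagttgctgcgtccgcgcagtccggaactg
Mcm6: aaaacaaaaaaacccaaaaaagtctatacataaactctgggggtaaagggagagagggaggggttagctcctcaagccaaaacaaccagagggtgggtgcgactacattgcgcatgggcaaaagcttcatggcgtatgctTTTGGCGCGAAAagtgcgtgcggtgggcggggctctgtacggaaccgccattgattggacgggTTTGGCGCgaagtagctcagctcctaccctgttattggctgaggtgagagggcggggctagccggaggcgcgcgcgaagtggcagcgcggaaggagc
Mcm3: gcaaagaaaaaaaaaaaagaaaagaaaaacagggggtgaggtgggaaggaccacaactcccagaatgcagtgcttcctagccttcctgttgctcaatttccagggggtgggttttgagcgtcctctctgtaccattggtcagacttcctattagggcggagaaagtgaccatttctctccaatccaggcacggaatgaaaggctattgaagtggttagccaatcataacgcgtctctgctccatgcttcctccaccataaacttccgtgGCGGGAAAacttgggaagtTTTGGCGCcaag

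The regulators of cell cycle entry also changed. Ccnd1, the D cyclin that couples growth signals to division, had 531, 778, 296 and 421 CPM in injured nerves, against 106, 113, 102 and 83.7 CPM in uninjured nerves (2.32, SE 0.295, adjusted p = 0.00202), and its kinase Cdk4 rose by 0.89. Cdkn1b, an inhibitor of these kinases, fell to 93.8, 89.6, 179.8 and 146 CPM in injured nerves, against 258, 225, 244 and 264 CPM in uninjured nerves (-0.98, adjusted p = 0.00979). Another inhibitor, Cdkn1a, had 196, 249, 491 and 369.5 CPM in injured nerves, against 505, 557, 532 and 508 CPM in uninjured nerves (-0.71, adjusted p = 0.0631), with no overlap but no call. Cdkn2a rose by 1.85 and the E cyclin Ccne1 by 2.72, both from uninjured levels of at most 2.71 CPM. Of the 16 D cyclin and CDK inhibitor genes, 8 rose (50%) and 1 fell, where 5 rose with muscle level as a covariate and 1 without uninjured replicates 1 and 4. Cdkn1a passed without injured replicate 3 (adjusted p = 0.00912).

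Myelin genes fell in part, and unevenly across the injured libraries. Of 20 myelin genes, 10 fell (50%) and 1 rose, with a median of -0.90. Mbp (chromosome 18, 82475146 to 82585637, plus strand), a main protein of compact myelin, had 9174, 12259, 18906 and 16047 CPM in injured nerves, against 25418, 39191, 29885 and 27947 CPM in uninjured nerves (-1.14, SE 0.279, adjusted p = 0.0178). Prx, which links the myelin sheath to the cell's skeleton, had 2386, 3204, 6934 and 4813 CPM in injured nerves, against 8776, 10225, 9365 and 8952 CPM in uninjured nerves (-1.13, SE 0.303, adjusted p = 0.0251). For both, injured replicates 1 and 2 were the lowest and replicate 3 came nearest to the uninjured range. Ugt8a, the enzyme that makes the galactolipids of myelin, fell by 1.47 on the log2 scale, Drp2, a partner of Prx, by 1.29, the lipid raft protein Mal by 1.08 and Cnp, an enzyme of non-compact myelin, by 0.88. Pmp22, another protein of compact myelin, had 9817, 8839.7, 24891 and 16528 CPM in injured nerves, against 29067, 26028, 26881 and 24884 CPM in uninjured nerves (-0.86, adjusted p = 0.0808). Injured replicate 3 lay within the uninjured range, and Pmp22 was not called, though it passed without that library (adjusted p = 0.00733). Mag (-0.31, adjusted p = 0.421) likewise did not pass. The Mbp call ended without uninjured replicate 2 (adjusted p = 0.0599), with muscle level as a covariate (adjusted p = 0.0512), without uninjured replicates 1 and 4 (adjusted p = 0.0696) and without replicate 4 of both groups (adjusted p = 0.0663). The Prx call ended without any 1 library other than injured replicate 1 or 3 (adjusted p = 0.0522 to 0.0727), the Mal call without injured replicate 2 or uninjured replicate 1, 2 or 3, the Drp2 call without uninjured replicate 2 and the Cnp call without uninjured replicate 1. The myelin count depended on single libraries: it was 17 without injured replicate 3, 6 without injured replicate 2 and 4, 2 and 6 without uninjured replicates 1, 2 and 3, and it was 1 with muscle level as a covariate, without uninjured replicates 1 and 4, or without replicate 4 of both groups.

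Gjb1 (chromosome X, 101376378 to 101385629, plus strand), the gap junction protein connexin 32 of myelin, was the myelin gene that rose. It had 298, 300.2, 236 and 345 CPM in injured nerves, against 176, 163, 154 and 166 CPM in uninjured nerves (0.83, SE 0.143, adjusted p = 0.00492), and the lowest injured library lay above the highest uninjured one. Without injured replicate 1 the change was 0.82 (adjusted p = 0.00493). No single library decided the call, but it ended without uninjured replicates 1 and 4 (0.78, adjusted p = 0.0788) and without replicate 4 of both groups (0.68, adjusted p = 0.0569). Several genes of the node and its flanks, where the axon's ion channels sit, moved the other way. Of 17 gap junction and node genes 6 fell (35.3%), Gjb1 alone rose and 10 were not called, with a median of -0.47. The number that fell was 3 without uninjured replicates 1 and 4 and 4 with muscle level as a covariate. The potassium channel gene Kcna1 had 16.1, 29.9, 39.9 and 50.7 CPM in injured nerves, against 99.2, 129.7, 100.3 and 98.3 CPM in uninjured nerves (-1.67, SE 0.301, adjusted p = 0.00689). Kcna2 fell by 1.15, the scaffold proteins Ank3 and Mpdz by 1.03 and 1.15, and the adhesion protein Nfasc by 0.79, a call that ended without any 1 library other than injured replicate 2 or 3. Gja1, connexin 43, had 524 CPM in injured replicate 1 and between 9.32 and 21.8 CPM in injured replicates 2 to 4, against 11.7 to 25.2 CPM in uninjured nerves (3.16, adjusted p = 0.168). It is one of the astrocyte markers, and without that library its change was 0.12 (adjusted p = 0.839).

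General identity genes of Schwann cells also fell in part. Of 16 Schwann cell lineage and non-myelinating genes, 7 fell (43.8%) and 2 rose, with a median of -0.49, where 2 fell without uninjured replicates 1 and 4, without replicate 4 of both groups or without uninjured replicate 2, 3 with muscle level as a covariate, and 4 without injured replicate 2 or uninjured replicate 3. Sox10, the transcription factor that all Schwann cells need, had 235, 236, 448 and 361 CPM in injured nerves, against 491, 566, 591 and 528 CPM in uninjured nerves (-0.79, adjusted p = 0.0235). Erbb3, the Neuregulin receptor, fell by 0.87, the calcium-binding protein S100b by 0.74 and the channel gene Scn7a of non-myelinating cells by 1.06. Besides Ngfr, the second gene that rose was Pou3f1, a transcription factor of promyelinating cells, by 0.55. Ndrg1 (chromosome 15, 66929318 to 66969640, minus strand), a cytoplasmic protein abundant in myelinating cells, had 1513, 1888, 3636 and 2694 CPM in injured nerves, against 4649.5, 5008, 4405 and 4361 CPM in uninjured nerves (-0.94, SE 0.260, adjusted p = 0.0275). Injured replicate 3 came nearest to the uninjured range, and the call ended without any 1 library other than injured replicate 1 or 3 (adjusted p = 0.0547 to 0.0808). Single libraries also ended the calls of Sox10 (injured replicate 2, uninjured replicates 2 and 3; adjusted p = 0.0565 to 0.0695), S100b (injured replicate 4, uninjured replicate 2) and Pou3f1 (injured replicates 2 and 4, uninjured replicates 2, 3 and 4).

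Cholesterol synthesis genes fell together. Of 24 genes, 19 fell (79.2%) and 0 rose, with a median of -0.99. Lss (chromosome 10, 76531588 to 76557138, plus strand), which closes the sterol rings, had the smallest p of the named genes that fell: 62.4, 44.1, 70.5 and 67.2 CPM in injured nerves, against 171, 169, 188 and 154 CPM in uninjured nerves (-1.50, SE 0.146, adjusted p = 0.00103). Hmgcs1 (chromosome 13, 119690379 to 119708260, plus strand), at the head of the pathway, had 683, 511, 889 and 732 CPM in injured nerves, against 1742, 1839, 1763 and 1407 CPM in uninjured nerves (-1.29, SE 0.191, adjusted p = 0.00314). In both genes injured replicate 2 was the lowest and replicate 3 the highest of the group, with a clear gap to the uninjured libraries. Insig1, a brake on sterol sensing, fell by 1.20, Idi1 by 1.13, Sqle by 1.11, the sterol carrier Stard4 by 0.97 and Srebf2, the transcription factor that controls the pathway, by 0.84. Ebp, Mvk, Dhcr7 and Tm7sf2 were among those not called. Leaving out single libraries left 16 to 19 genes lower, muscle level as a covariate 17, removal of replicate 4 of both groups 15, and removal of uninjured replicates 1 and 4 left 9.

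The CCAAT box CCAATCA, bound by the factor NF-Y that works beside SREBP on sterol genes, was found on either strand in 10 of 16 cholesterol promoters (62.5%), against 10.2% of promoters of tested genes and 8.2% of all promoters; it was also in 9 of 20 mitosis promoters (45%). Lss (chr10:76531355-76531654) and Idi1 (chr13:8885356-8885655) are shown from the same RefSeq windows, both on the plus strand, with the box in capitals. It reads TGATTGG here because it lies on the opposite strand.
Lss: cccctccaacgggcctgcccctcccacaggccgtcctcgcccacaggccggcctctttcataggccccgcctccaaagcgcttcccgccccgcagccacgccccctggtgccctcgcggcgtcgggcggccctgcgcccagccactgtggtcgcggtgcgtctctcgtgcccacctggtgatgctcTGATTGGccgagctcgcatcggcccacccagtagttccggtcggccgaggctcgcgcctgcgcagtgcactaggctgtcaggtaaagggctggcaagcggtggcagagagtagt
Idi1: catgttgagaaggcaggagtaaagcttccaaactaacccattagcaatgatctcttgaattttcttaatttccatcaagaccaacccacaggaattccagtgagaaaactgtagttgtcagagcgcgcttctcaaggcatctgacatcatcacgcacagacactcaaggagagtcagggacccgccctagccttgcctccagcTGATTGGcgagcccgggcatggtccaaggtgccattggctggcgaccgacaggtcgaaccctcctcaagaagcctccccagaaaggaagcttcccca

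Fatty acid synthesis moved the same way in fewer of its genes, with 8 of 15 lower (53.3%), 0 higher and a median of -0.68. Fasn, the fatty acid synthase, had 347, 235, 378 and 391 CPM in injured nerves, against 664, 633, 718 and 803 CPM in uninjured nerves (-1.08, SE 0.166, adjusted p = 0.00351). Acaca, which makes its substrate, fell by 1.13, Acly, which supplies acetyl-CoA, by 1.03, and Elovl6, which lengthens the chains, by 1.40. Scd2, the main desaturase of nerve, fell by 0.68, a call that ended without any 1 library other than injured replicate 1 or 3, and its relative Scd1 was not called (-0.40, adjusted p = 0.254). The count was 11 without injured replicate 1, 5 without injured replicate 4 or without uninjured replicate 2, 3 or 4, 5 with muscle level as a covariate or without replicate 4 of both groups, and 4 without uninjured replicates 1 and 4. Beside Lss, the 12 named genes that fell with the smallest p included Aacs, a ketone-activating enzyme of lipid synthesis, at 66.2, 60.4, 80.2 and 65.7 CPM in injured nerves, against 155, 141, 162 and 127 CPM in uninjured nerves (-1.12, SE 0.126, adjusted p = 0.00173), Dixdc1, a protein of Wnt signalling (-1.59), and Rspo1, a secreted enhancer of Wnt signals (-1.44). Mturn (-1.39), the zinc finger gene Zfp871 (-1.57), the histone demethylase Kdm1b (-1.08), the transport adaptor Bicd1 (-1.58), the RNA-binding protein Cpeb2 (-1.22), Plekhh2 (-1.31), the chromatin protein Kmt2e (-1.05) and Reep6 (-1.47) complete the 12. In none of the 12 did an injured library reach the uninjured range. They were picked by p from these same libraries, and only 255 of all 3365 called genes had groups that overlapped.

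**Figure D3:**
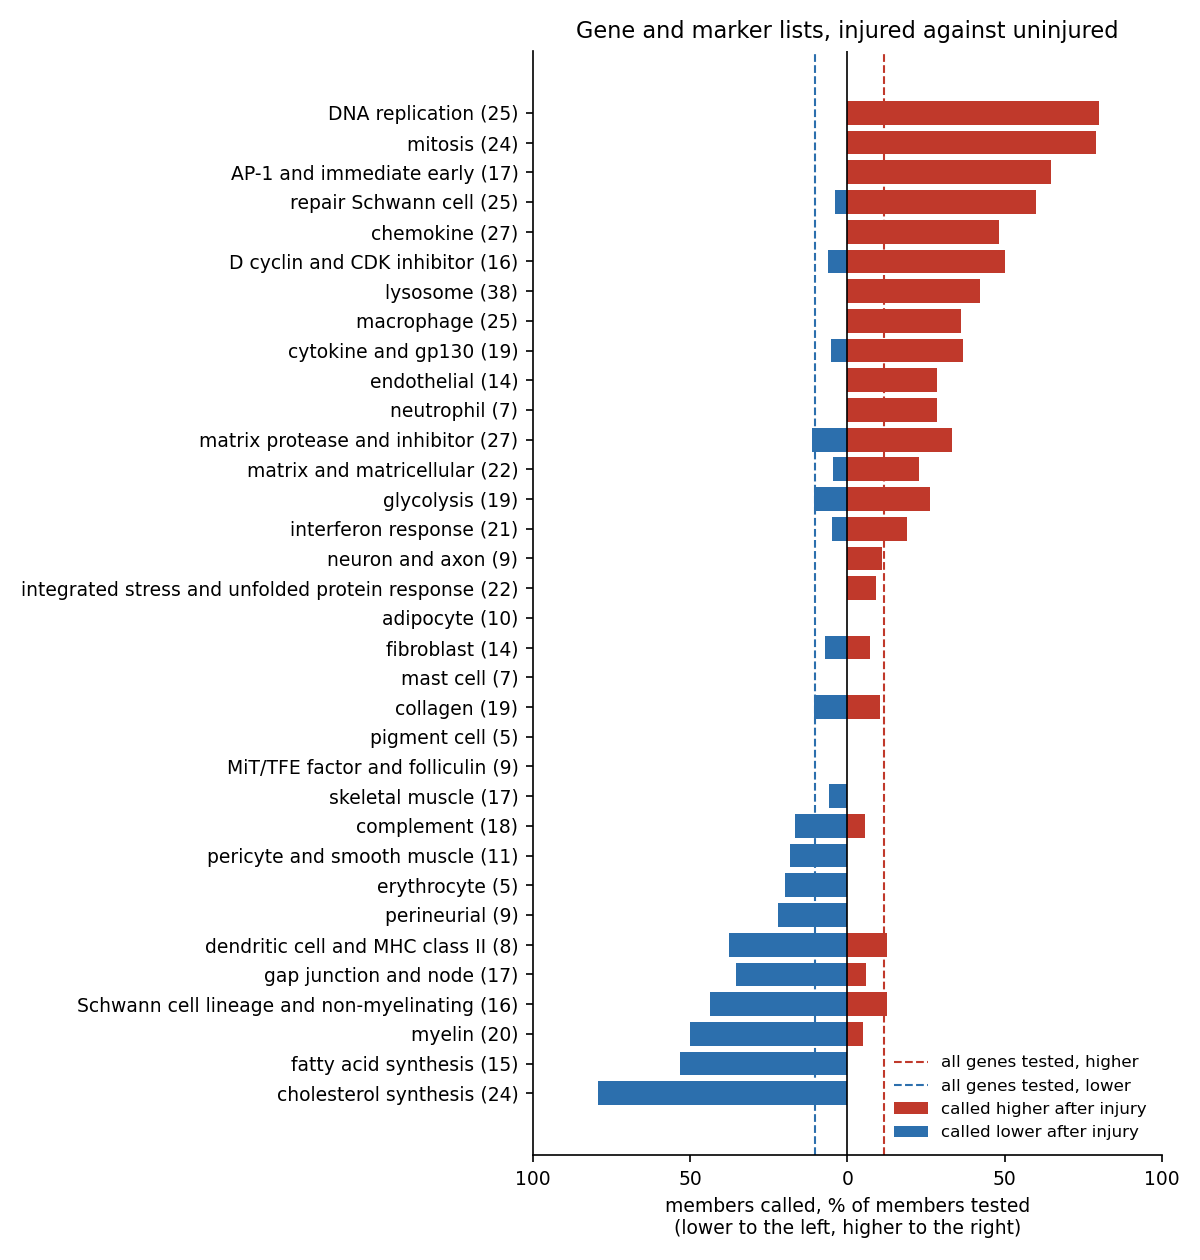
Percent of the tested members of each list (number in brackets) called higher to the right and lower to the left in injured against uninjured nerves, with dashed lines at the share of all genes tested (11.7% higher, 10.4% lower). DNA replication and mitosis reach 80% and 79.2% higher, and cholesterol synthesis 79.2% lower.

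Immune signals rose, and the macrophage genes that rose depended on which injured libraries were counted. Of 27 chemokine and receptor genes tested, 13 rose (48.1%) and 0 fell, with a median of 1.64, and without injured replicate 1 18 of 28 rose. Cxcl14, a chemokine of epithelia and nerve, had 244, 134, 233 and 98.6 CPM in injured nerves, against 12.4, 8.70, 10.8 and 5.54 CPM in uninjured nerves (4.23, SE 0.376, adjusted p = 0.00108). Ccl2, which draws monocytes, had 16.1, 40.2, 24.8 and 26.5 CPM in injured nerves, against 4.29, 2.78, 6.72 and 5.51 CPM in uninjured nerves (2.49, SE 0.337, adjusted p = 0.00237), and its receptor Ccr2 rose by 1.91. Ccl9 rose by 2.28, Ccl7 by 2.44, Ccl6 by 1.64 and the receptor Ccr1 by 2.52. The number of chemokine genes that rose was 7 without injured replicate 2, 8 with muscle level as a covariate and 5 without uninjured replicates 1 and 4. The Ccl6 call ended without any 1 library other than uninjured replicate 3, and the Ccl7 call without injured replicate 2 or uninjured replicate 1 or 4. Of 19 cytokine and gp130 genes, 7 rose (36.8%) and 1 fell, with a median of 0.35. Besides Clcf1 these included Il1rn, which blocks interleukin 1 (5.17), Il1b itself (4.70), the gp130 feedback inhibitor Socs3 (1.08), Tgfb1 (1.06) and Csf2rb, a receptor subunit. Il1b was low throughout, at 1.11 to 8.35 CPM in injured nerves and 0 to 0.334 CPM in uninjured nerves. The Il1b call ended without injured replicate 2 (adjusted p = 0.0735). Without uninjured replicates 1 and 4, 4 of the cytokine genes rose.

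Macrophage markers summed to 1304, 3041, 2403 and 2608 CPM in injured replicates 1 to 4, against 1171, 669, 1337 and 1635 CPM in uninjured replicates 1 to 4, so the groups overlapped through injured replicate 1. Of the 25 markers, 9 rose (36%) and 0 fell, with a median of 0.91, and without injured replicate 1 18 rose and 1 fell. Aif1, a calcium-binding protein of macrophages, had 20.2, 28.1, 29.7 and 37.7 CPM in injured nerves, against 7.59, 8.24, 9.55 and 10.2 CPM in uninjured nerves (1.69, SE 0.200, adjusted p = 0.00182). Arg1, an enzyme of wound macrophages, had 24.1, 109, 28.1 and 25.7 CPM in injured nerves, against 1.51, 0.420, 1.38 and 0 CPM in uninjured nerves (5.83, SE 1.10, adjusted p = 0.0126). Neither gene overlapped between groups, and injured replicate 2 was far above the rest for Arg1. The lipid-sensing receptor Trem2 rose by 1.98, the scavenger receptor Msr1 by 2.28, the integrin Itgam by 1.60 and the secreted lectin Chil3 by 3.39. Single libraries ended the calls of Trem2 (injured replicate 2, uninjured replicate 1), Chil3 (injured replicates 2 and 4, uninjured replicate 1) and Itgam (any library other than injured replicate 1). Lyz2, lysozyme, had 507, 1381, 830.2 and 1092 CPM in injured nerves, against 356, 179.7, 502 and 605 CPM in uninjured nerves (1.23, adjusted p = 0.0515), and passed without injured replicate 1 (1.44, adjusted p = 0.0173). Among the members not called were the growth factor receptor Csf1r (0.14, adjusted p = 0.773), the mannose receptor Mrc1 (0.36, adjusted p = 0.443) and Adgre1 (0.68, adjusted p = 0.182; 0.90 and 0.0362 without injured replicate 1), while the folate receptor Folr2 rose by 1.03 (adjusted p = 0.027). The fractalkine receptor Cx3cr1 passed without injured replicate 1 (0.94, adjusted p = 0.0214). The macrophage count was 4 without injured replicate 2 or uninjured replicate 1, 4 without replicate 4 of both groups, 2 with muscle level as a covariate and 1 without uninjured replicates 1 and 4. Neutrophil markers summed to at most 46.3 CPM in any injured library and 16.7 CPM in any uninjured one. Of 16 markers 7 had enough counts to be tested, and 2 of these rose (28.6%, against 11.7% of all genes). So few markers cannot be set apart from the share of all genes. The count was 0 without injured replicate 2 or 4 and without uninjured replicate 1 or 2.

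Antigen presentation and complement did not follow. Cd74, the chaperone of MHC class II, had 75.4, 158, 213 and 201 CPM in injured nerves, against 378, 259, 293 and 453 CPM in uninjured nerves (-1.10, SE 0.299, adjusted p = 0.0272). H2-Ab1 fell by 0.82 and H2-Aa by 0.86, so that 3 of 8 dendritic cell and MHC class II markers fell (37.5%) and 1 rose. The 3 calls ended without single libraries, and 0 fell without injured replicate 2, uninjured replicate 1 or uninjured replicate 4, and in the fits with muscle level as a covariate or fewer libraries. Of 18 complement genes, 3 fell (16.7%, against 10.4% of all genes tested) and 1 rose (5.56%, against 11.7%), which is near the shares of all genes. The central component C3 (-0.99), the protective protein Cd55 (-1.07) and C2 (-1.21) fell, and the receptor C3ar1 rose (1.42). Without injured replicate 1, 6 complement genes rose and 2 fell, 1 fell without injured replicate 2 or without uninjured replicate 1, 2 or 3, and 0 fell without uninjured replicates 1 and 4. The C2 call ended without any 1 library other than injured replicate 4, and the C3ar1 call without injured replicate 2 or 4 or uninjured replicate 1, 2 or 3.

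Lysosomal genes rose moderately. Of 38 measured, 16 rose (42.1%) and 0 fell, with a median of 0.51. The protease Lgmn had 182, 361, 273 and 272 CPM in injured nerves, against 83.5, 68.3, 116 and 124 CPM in uninjured nerves (1.48, SE 0.241, adjusted p = 0.00411). Ctsd, a major lysosomal protease, had 1050, 1258, 1058 and 1101 CPM in injured nerves, against 516, 423, 625 and 596 CPM in uninjured nerves (adjusted p = 0.00363). Atp6v0d2, a proton pump subunit of phagocytic cells and osteoclasts, had 16.5, 14.9, 7.58 and 14.7 CPM in injured nerves, against 1.27, 1.03, 0.584 and 0.411 CPM in uninjured nerves (4.00, SE 0.446, adjusted p = 0.00173). All injured libraries lay above all uninjured ones for these 3 genes. The pump subunit Atp6v1b2 rose by 1.26, the membrane protein Cd63 by 1.05, the protease Ctsb by 0.92 and the lipid-degradation cofactor precursor Psap by 0.60, a call that ended without any 1 library other than injured replicate 3. Gpnmb, a membrane glycoprotein under Mitf control in pigment cells, had 36.6, 91.1, 47.7 and 49.9 CPM in injured nerves, against 35.3, 26.7, 35.7 and 40.2 CPM in uninjured nerves (0.72, adjusted p = 0.0895; 0.88 and 0.0265 without injured replicate 1). The lysosomal count was 8 without replicate 4 of both groups and 4 without uninjured replicates 1 and 4.

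Mitf (chromosome 6, 97807052 to 98021349, plus strand), which all 8 labels name, had 5.89, 11.5, 6.37 and 10.9 CPM in injured nerves, against 14.2, 12.7, 13.5 and 13.4 CPM in uninjured nerves (-0.64, SE 0.261, adjusted p = 0.107). All injured libraries were below all uninjured ones, but the change did not pass the test. A count over the whole gene includes reads of every exon, so it cannot check for a deletion of part of it. None of the 9 MiT/TFE and folliculin genes passed in edgeR's test, where their median was 0.081 and 1 passed without injured replicate 1, and Tfec, the relative found in macrophages, ranged from 0.478 to 4.65 CPM in injured nerves and from 0 to 1.01 CPM in uninjured nerves (2.71, adjusted p = 0.13). Fig4, the phosphoinositide phosphatase studied elsewhere in the series, had 26.1, 19.3, 21.1 and 26.6 CPM in injured nerves, against 27.9, 28.6, 32.1 and 25.6 CPM in uninjured nerves (-0.31, adjusted p = 0.154), with overlap.

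Several matrix proteases and their inhibitors rose. Of 27 tested, 9 rose (33.3%) and 3 fell, with a median of 0.61. Next to Timp1, the urokinase receptor Plaur had 14.3, 16.3, 10.4 and 10.6 CPM in injured nerves, against 1.71, 0.953, 1.71 and 1.77 CPM in uninjured nerves (3.07, SE 0.307, adjusted p = 0.0011). The aggrecanase Adamts4 rose by 1.35, while the metalloproteinase Mmp28, known from nerve repair, fell by 1.30 and Adamts5 by 0.80. Mmp12 rose by 6.57, with 1.03, 23.8, 1.12 and 26.5 CPM in injured nerves, against at most 0.411 CPM in uninjured nerves. The number of these genes that rose was 3 with muscle level as a covariate or without uninjured replicates 1 and 4, and 5 without uninjured replicate 2 or replicate 4 of both groups, and 5 fell without injured replicate 3. The Mmp12 call ended without injured replicate 2 or uninjured replicate 1, 2 or 3. Among 22 matrix and matricellular genes, 5 rose (22.7%) and 1 fell, with 8 and 1 without injured replicate 1 and 5 and 7 without injured replicate 3: beside Lgals3, Cd44 and Tnc, the thrombospondin Thbs2 rose by 2.05, and the laminin Lama2 of the Schwann cell's basal lamina fell by 0.94. Spp1, osteopontin, had 623, 935, 1777 and 1078 CPM in injured nerves, against 1130.3, 814, 1024 and 857 CPM in uninjured nerves (0.19, adjusted p = 0.675). Of 19 collagens, 2 rose and 2 fell (10.5% each, at the background), among them Col18a1 (0.61), Col14a1 (-0.95) and Col4a1 (-0.90), while Col1a1 was not called (-0.14, adjusted p = 0.766). Without injured replicate 3, 7 collagens fell, and without injured replicate 2 or 4 or uninjured replicate 1, 2 or 3 none did. The Lama2 call ended without any 1 library other than injured replicate 1, 3 or 4.

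Markers of other cells of the nerve moved in both directions, where all genes tested had 11.7% higher and 10.4% lower. Of 14 endothelial markers 4 rose (28.6%) and 0 fell: Plvap, a protein of leaky vessels, had 38.2, 43.2, 31.4 and 59.8 CPM in injured nerves, against 14.2, 2.56, 9.01 and 10.3 CPM in uninjured nerves (2.25, SE 0.441, adjusted p = 0.00983), and Tie1 and Esam rose by 0.88 and 0.86, with 1 higher without uninjured replicates 1 and 4 or replicate 4 of both groups, 2 with muscle level as a covariate and 6 without injured replicate 1. Pecam1 was at 62.1 to 136 CPM in injured nerves and 49.8 to 60.9 CPM in uninjured nerves (0.67, adjusted p = 0.0579). Perineurial markers, of the sheath around each nerve bundle, had 2 of 9 lower, among them the integrin Itgb4 (-1.21), and summed to 285 to 556 CPM in injured nerves, against 698 to 1006 CPM in uninjured nerves, without overlap. Fibroblast markers had 1 of 14 in each direction, pericyte and smooth muscle markers 2 of 11 lower, and adipocyte, mast cell and lymphocyte markers none called of 10, 7 and 2 tested, although 5 mast cell markers fell without injured replicate 3 and 1 adipocyte marker without uninjured replicate 2. With so few markers, the perineurial, fibroblast and pericyte counts cannot be set apart from the shares of all genes. The fibroblast and pericyte counts were 0 in some fits with 1 library left out. Of 17 skeletal muscle markers tested 1 fell, Casq1, with 21.3, 16.7, 42.8 and 25.4 CPM in injured nerves, against 63.0, 52.4, 34.9 and 90.1 CPM in uninjured nerves (-1.20, adjusted p = 0.0302), in overlap, a call that ended without any 1 library other than injured replicate 3 or uninjured replicate 3. The beta-globin Hbb-bs, from red blood cells, fell by 1.23, the only call among 5 erythrocyte markers tested (20% lower, median -1.13). Tubb3, a tubulin of neurons, rose by 2.92, with 27.2, 28.3, 11.4 and 5.17 CPM in injured nerves, against 1.45, 3.74, 3.21 and 1.18 CPM in uninjured nerves. Tubb3 was the only call among 9 neuron and axon markers tested (11.1% higher, near the share of all genes), and their median was -0.20.

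Metabolic and housekeeping genes also moved. All 12 mitochondrially encoded genes that passed, of 15 tested, rose: mt-Nd1 had 12084, 16870.5, 5880.1 and 10672 CPM in injured nerves, against 3289, 2570.1, 2989.6 and 2713 CPM in uninjured nerves (1.98, SE 0.316, adjusted p = 0.0038), and mt-Co1, the most abundant of them, rose by 1.19, a call that ended without uninjured replicate 2, 3 or 4 (adjusted p = 0.0503 to 0.051). Among 83 ribosomal protein genes tested 66 rose and 0 fell, with a median of 0.78 and Rpsa higher by 1.37. Both sets were chosen after the data were seen. With the length trend of each library removed, 2786 of the 13473 genes with a known length were called. They included 2368 of the 3365 (70.4%), some of which had no known length and could not be tested again. How many calls of the mitochondrial and ribosomal sets stayed was not counted. Prdx1, a peroxide-removing enzyme, had 2175, 2005, 802 and 2009 CPM in injured nerves, against 568, 456, 549.9 and 449 CPM in uninjured nerves (1.78, SE 0.297, adjusted p = 0.00428). Of 19 glycolysis genes 5 rose (26.3%) and 2 fell, led by Pgk1 (1.07), with 3 higher without injured replicate 2 or uninjured replicate 3 or 4, 2 without uninjured replicate 1 or 2 or with muscle level as a covariate, 1 without replicate 4 of both groups and 0 without uninjured replicates 1 and 4. Aldoc, an aldolase that is also an astrocyte marker, was at 3048 CPM in injured replicate 1 and at 1.94 to 7.12 CPM in injured replicates 2 to 4, against 16.1 to 24.0 CPM in uninjured nerves: its change was 5.35 with that library (adjusted p = 0.194) and -2.15 without it (adjusted p = 0.00488). Slc7a11, a cystine transporter of the stress response, likewise had 121 CPM in injured replicate 1 and at most 2.92 CPM in the other 7 libraries, and was not called (7.31, adjusted p = 0.0879; 0.0468 without injured replicate 3). Stress response genes had 2 of 22 higher (9.09%) and interferon response genes 4 of 21 higher (19%) and 1 lower. All genes tested had 11.7% higher and 10.4% lower, so the stress response count was near the share of all genes.

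The same genes could be followed later in wild type nerves of another table, at 3, 7 and 14 days post injury, which shares no library with this comparison. Of the 837 genes higher after injury by at least 1, 836 were tested there, and from day 3 to day 7 362 fell (43.3%, against 19.6% of all 15852 genes) and 75 rose (8.97%, against 19.4%). From day 3 to day 14, which uses the same day 3 libraries, 508 fell (60.8%, against 28.2%) and 79 rose (9.45%, against 28.9%), and the median log2 change was -0.88, against 0.048 over all genes. The 304 genes lower after injury had shares nearer to those of all genes: of 283 tested, 70 fell and 52 rose by day 7 (24.7% and 18.4%), and 81 fell and 71 rose by day 14 (28.6% and 25.1%). Without day 7 replicate 1, 44 of the 283 fell and 49 of the 836 rose by day 7. Skeletal muscle RNA moves in that table too, with 24 of 24 muscle markers higher at day 14 than at day 3, and its part in these counts was not tested.

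Clcf1 averaged 501 ± 117, 9.65 ± 3.03 and 2.30 ± 0.456 CPM at days 3, 7 and 14 (SD, n = 3 each), and fell by 5.52 on the log2 scale by day 7 (edgeR adjusted p = 3.84e-07). Shh averaged 501 ± 42.7, 13.8 ± 11.1 and 1.30 ± 0.850 CPM (SD, n = 3 each), and Timp1 759 ± 146, 163 ± 29.6 and 89.5 ± 25.3 CPM (SD, n = 3 each). These 3 genes were highest at day 3, with no overlap with the later days, and over the repair list 12 of 28 genes fell and 4 rose by day 7. Jun declined more slowly, at 269 ± 8.90, 149 ± 33.3 and 70.5 ± 12.1 CPM (SD, n = 3 each), and Tnc was highest at day 7, at 248 ± 8.09, 1086 ± 622 and 226 ± 107 CPM (SD, n = 3 each). Cdk1 averaged 101 ± 10.9, 56.7 ± 16.4 and 31.5 ± 8.35 CPM (SD, n = 3 each), and all 25 mitosis genes were lower at day 14 than at day 3. Gjb1, a member of the myelin list, averaged 850.2 ± 42.2, 3.99 ± 2.01 and 1.71 ± 0.664 CPM (SD, n = 3 each). It fell by 7.55 by day 7 (SE 0.481, edgeR adjusted p = 1.31e-07). Over the myelin list 13 of 20 genes fell and 0 rose by day 7, with a median log2 change of -2.27, against -0.69 over the repair list. Among 19 collagens, 11 were higher and 0 lower at day 7 than at day 3, and 5 were higher and 2 lower at day 14. Over all genes tested there, 19.4% were higher and 19.6% lower at day 7, and 28.9% and 28.2% at day 14. The day 14 collagen counts did not exceed these shares. Cholesterol genes had 1 higher and 6 lower of 24 at day 7, and Lss averaged 7.05 ± 0.694, 5.50 ± 1.15 and 2.86 ± 1.17 CPM (SD, n = 3 each). Levels differ between the tables at the one time they share: Mbp averaged 14096 ± 4264 CPM in injured nerves labelled Mitf (SD, n = 4) and 1229 ± 237 CPM in wild type nerves (SD, n = 3), both at 3 days, and Gjb1 294.7 ± 44.9 CPM and 850.2 ± 42.2 CPM; genotype label, table and any difference in injury cannot be told apart.

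**Figure D4:**
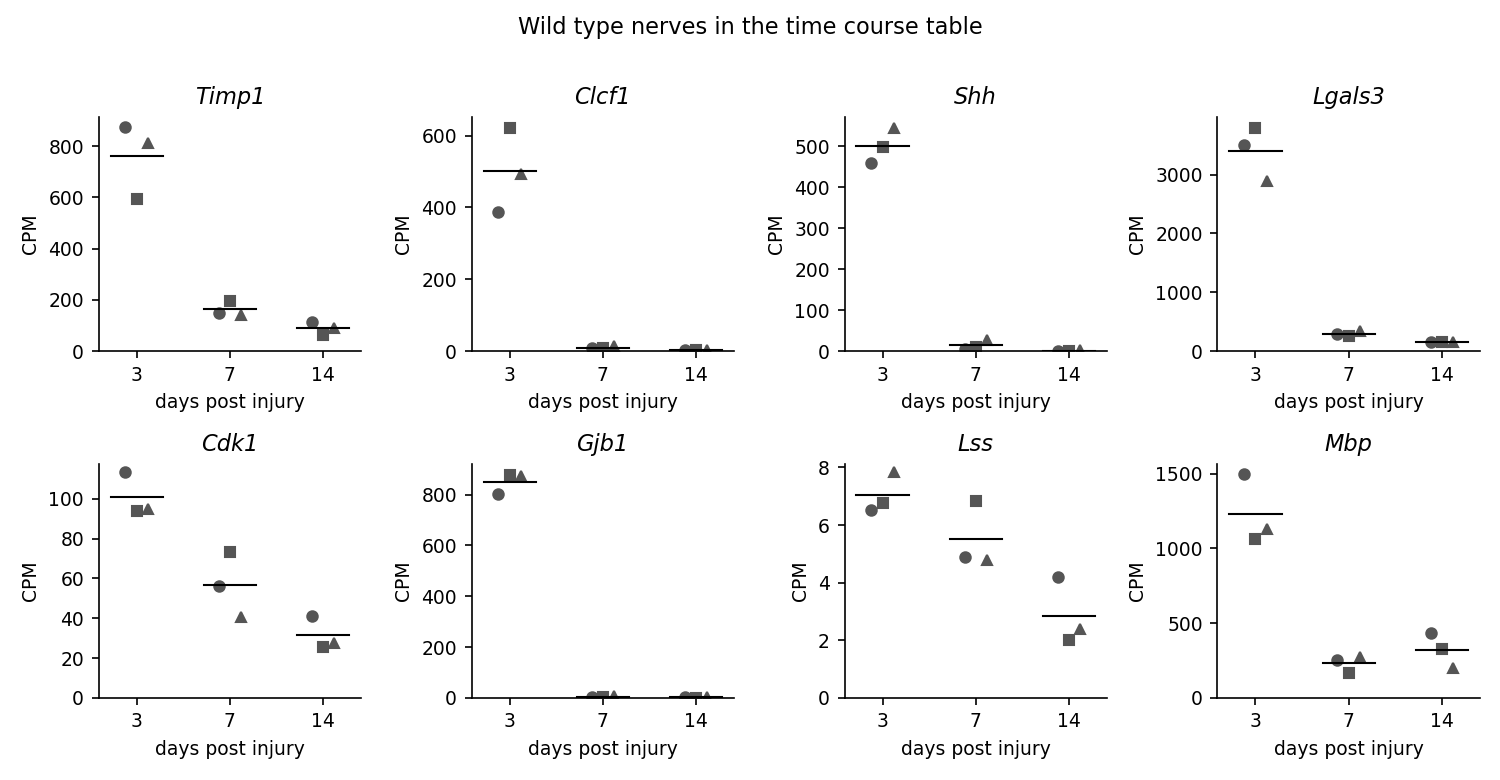
CPM of 8 genes in wild type nerves at 3, 7 and 14 days post injury, with 1 symbol per library and a line at the mean of 3 libraries. Clcf1, Shh, Lgals3 and Gjb1 are high at day 3 and close to 0 on these axes by day 14, while Cdk1 declines more gradually.

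Nerves labelled Ndrg1 were set beside injured nerve, since loss of Ndrg1 is known to cause a demyelinating neuropathy. In 1 fit of both tables, the change after injury was contrasted with the change between Ndrg1 and control nerves: of 16398 genes, 1268 differed (7.73%), 835 with the more positive change after injury (5.09%) and 433 with the more negative (2.64%). Cholesterol synthesis fell less after injury: 20 of 24 genes had the more positive value after injury, with a median log2 change of -0.98 after injury and -1.88 in Ndrg1 nerves in that fit. Lss changed by -1.49 after injury and by -2.46 in Ndrg1 nerves, where it stood at 72.2 ± 16.4 CPM (SD, n = 5), against 351 ± 43.9 CPM in controls (SD, n = 6; difference 0.96, SE 0.192, adjusted p = 0.00512). For Hmgcs1 the difference of 0.49 did not pass (adjusted p = 0.168). Mbp changed by -1.13 after injury and by -1.20 in Ndrg1 nerves (difference 0.06, SE 0.285, adjusted p = 0.927).

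Gjb1 was among the 10 strongest differences. It rose after injury (0.83 in this fit) and fell in Ndrg1 nerves (-1.03), to 103 ± 23.9 CPM (SD, n = 5), against 186 ± 8.36 CPM in controls (SD, n = 6; difference 1.86, SE 0.176, adjusted p = 4.01e-06). Endothelial markers also differed, with 10 of 14 more positive after injury, among them Esam (0.87 after injury, -0.32 in Ndrg1 nerves, adjusted p = 0.000519) and Pecam1 (0.68 and -0.72, adjusted p = 0.00224). On the other side, 10 of 25 macrophage markers had the more negative value after injury and 2 the more positive. Lyz2 changed by 1.23 after injury and 3.92 in Ndrg1 nerves (difference -2.68, SE 0.394, adjusted p = 0.000582). Gpnmb gave the smallest p: 0.72 after injury and 5.46 in Ndrg1 nerves, where it reached 415 ± 69.5 CPM (SD, n = 5), against 8.36 ± 1.44 CPM in controls (SD, n = 6; difference -4.74, SE 0.296, adjusted p = 1.11e-08). Arg1 went the other way, with 5.84 after injury and 1.59 in Ndrg1 nerves (difference 4.26, SE 1.00, adjusted p = 0.0172). Among repair signals, Timp1 changed by 5.61 after injury and 5.35 in Ndrg1 nerves (difference 0.26, SE 0.202, adjusted p = 0.457), Shh by 4.77 after injury and 5.04 in Ndrg1 nerves (difference -0.27, SE 0.431, adjusted p = 0.753), while Clcf1 rose more after injury, by 5.38, against 3.90 in Ndrg1 nerves (difference 1.48, SE 0.305, adjusted p = 0.00658). Mitosis genes had medians of 3.19 after injury and 2.38 in Ndrg1 nerves, with 1 of 25 called different. Leaving out injured replicate 2 gave 2057 differing genes and leaving out Ndrg1 replicate 2 gave 823, with 516 more positive without uninjured replicate 3, and age, label and table cannot be told apart here.

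**Figure D5:**
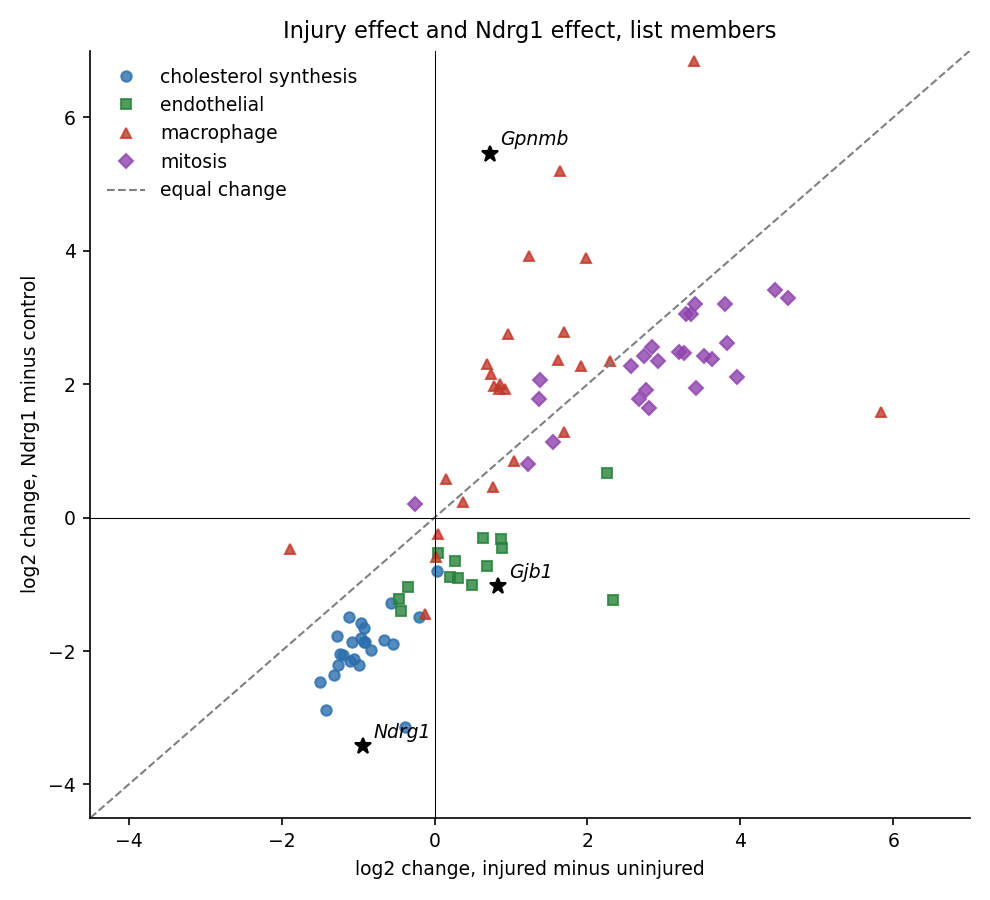
Log2 change in injured against uninjured nerves (horizontal) and in Ndrg1 against control nerves (vertical) for the members of 4 lists, with stars for 3 single genes and a dashed line where the changes are equal. Most cholesterol genes lie below 0 on both axes and under the line, Gpnmb lies far above it, and Gjb1 has opposite signs.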

How the data were processed

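RNA was extracted with a Qiagen kit from quick-frozen nerve and sequenced from TruSeq stranded mRNA libraries, per the labels' protocols. What the authors deposited is a table of estimated counts by gene, for which the submitters' processing notes name kallisto and mm10; tool versions were not given in the sources used here. No deposited column was left without a sample.

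Estimated counts were rounded and tested in R 4.3.3 with edgeR 4.0.16 (robust quasi-likelihood, TMM, filterByExpr with a minimum count of 10, Benjamini-Hochberg adjusted p under 0.05). The injury comparison used its own 8 libraries. The difference from Ndrg1 was an interaction over the injury and Ndrg1 tables, and the time course was fitted within its own table of 18 libraries. The SE of a log2 change is its size divided by the square root of F. CPM values are estimated counts scaled by each library's total. For "muscle level as a covariate", log2 of CPM plus 2 was taken for each muscle marker and averaged over the markers in each library. Intervals of counting error were not needed, since each value is given by library; p-values cover the spread between libraries only.

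Genes were named by rule: Mitf, Jun, Ndrg1 and Fig4; per direction the 12 smallest p among called genes whose log2 change was 1 or more in size and whose mean reached 5 CPM; the 8 largest differences in mean CPM; and list members by p or as needed. The members and lists were chosen with earlier results of these data known. The astrocyte, central neuron, mitochondrial and ribosomal sets, and the alternatives that leave out pairs of libraries or remove the length trend, were chosen after seeing the data.

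Alternatives were DESeq2 1.42.0, its size factors, no filter on low counts, a replicate block, muscle and Ddx3y covariates, removed muscle counts and each library left out. The test was checked on simulated counts of 14777 genes for the injury comparison, where it recovered 30.5% of 2-fold and 78.1% of 4-fold changes and called 7 unchanged genes. Lengths and positions come from GENCODE vM21 (GRCm38), and promoter sequences from RefSeq (GRCm38.p6). The other tables of the series were not used here. Some members of the lists are counted in them but are not reported here by name.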

Additional observations from a re-analysis of the deposited data

Results flagged for a closer look

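In 426 groups of 4 libraries, 38 single values lay far from the other 3 (Dixon's 95% limit), where chance gives about 1 in 20 groups. Values are CPM, and summed CPM for lists and sets. Injured replicate 1 stood apart for Gfap (399), Sox2 (57.2), Aldoc (3048), Slc7a11 (121), Gja1 (524), repair Schwann cell list (2592), glycolysis list (8471), astrocyte set (15378) and central neuron set (484). Injured replicate 2 stood apart for Jun (125) and Arg1 (109). Injured replicate 3 stood apart for Tnfrsf12a (44.5), Prdx1 (802), Fosl1 (3.32) and mast cell list (148). Injured replicate 4 stood apart for Ctla2a (67.6). Uninjured replicate 1 stood apart for Hmga2 (3.56), Aldoc (24.0) and Insig1 (283). Uninjured replicate 2 stood apart for Mturn (345), Mki67 (2.94), Plaur (0.953), Kcna1 (129.7), S100b (1281), Mrc1 (28.0), Gap43 (11.1), D cyclin and CDK inhibitor list (1147) and neuron and axon list (318). Uninjured replicate 3 stood apart for Cdk1 (3.34), Tk1 (3.75) and ribosomal protein set (26172). Uninjured replicate 4 stood apart for Fosl1 (0.19), Mcm6 (13.5), C2 (49.5), Gja1 (25.2), Adamts5 (130.5), MiT/TFE factor and folliculin list (295) and skeletal muscle list (3343).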

How the results depend on the processing

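Against 3365 genes called (1785 higher, 1580 lower), 1205 (652 higher, 553 lower) were called with muscle level as a covariate, 574 (267, 307) without uninjured replicates 1 and 4, and 1479 (663, 816) without replicate 4 of both groups. Other settings called 2768 (replicate block) to 4363 (DESeq2). With 1 library left out, 1816 to 4058 genes were called (1077 to 2021 higher, 739 to 2037 lower), and the log2 difference in muscle RNA was -2.81 to -1.06. Of 149 called genes in the text, 142 stayed called without injured replicate 1, 100 with the muscle covariate, 72 without uninjured replicates 1 and 4 and 140 with the block. Of the genes not called, 5 changed sign. Aldoc was -0.98 with the replicate block and -2.15 to 5.78 with 1 library left out. Lif was -0.030 with the block, -0.012 with the muscle covariate, -0.091 without uninjured replicates 1 and 4, -0.027 without replicate 4 of both groups and -0.21 to 0.12 with 1 library left out. Col1a1 was 0.14 with the length trend removed and -0.40 to 0.060 with 1 library left out, Spp1 -0.12 to 0.38 and Csf1r -0.036 to 0.35, with -9e-04 without uninjured replicate 2. The cause was not tested.

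Same-numbered injured and uninjured libraries correlated at 0.0442, 0.0098, 0.0662 and 0.1709 for replicates 1 to 4. The uninjured library that correlated best had the same number for injured replicates 1, 3 and 4, and was replicate 3 for injured replicate 2. Replicate 4 was also the only one with Xist in both groups. The labels state no pairing, so whether the numbers pair the libraries cannot be told. The main fit did not pair them, and the fit with a replicate block called 2768 genes.

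Of the 1268 genes that differed from Ndrg1 (835 more positive, 433 more negative), DESeq2 called 749 more negative, the replicate block left 615 (401 and 214), and leaving out 1 library gave 823 to 2057 (488 to 1307 and 303 to 750). Taking injury genes without a minimum fold, 659 of those higher after injury fell and 138 rose by day 7, and 858 fell and 307 rose by day 14; of those lower after injury, 329 fell and 277 rose by day 7, and 514 fell and 393 rose by day 14. The next ranges leave out 1 of the 18 time course libraries, those labelled Mutant included. Of the higher genes 275 to 407 fell and 49 to 88 rose by day 7, and 471 to 526 fell and 64 to 91 rose by day 14. Of the lower genes 44 to 80 fell and 39 to 56 rose by day 7, and 61 to 94 fell and 59 to 75 rose by day 14. Each upper end came without Mutant day 14 replicate 3. In simulated counts a 2-fold change was recovered in 30.5% of genes, so smaller changes may have been missed.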

Other observations

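One unnamed transcript, picked after its values were seen, was close to absent from injured nerves: RP23-118A2.10 had at most 0.000284 CPM in the 4 injured libraries, against 22.9, 48.9, 71.6 and 59.3 CPM in uninjured replicates 1 to 4 (log2 change -13.44, edgeR adjusted p = 0.00125).

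In the wild type time course some genes were higher later than at day 3. Col14a1 averaged 90.7, 274 and 138 CPM at days 3, 7 and 14 (n = 3 each), and H2-Ab1 averaged 162, 329 and 319.5 CPM; both had fallen 3 days post injury in the injury table. Of 14 fibroblast markers 10 were higher at day 7 than at day 3, against 19.4% of all genes. Of 11 dendritic cell and MHC class II markers 8 were higher at day 14, against 28.9% of all genes.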
